A study of Mus musculus with 9 samples.

Results

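A set of 3640 open chromatin regions of mouse brain endothelium had a peak in each of 7 libraries and in neither young WT Cre library, and this set is described here. The regions were chosen by the peak calls themselves. The broad peaks of all 9 Omni-ATAC-seq libraries were merged wherever they shared 1 bp, and a merged region was kept where every old library and every young EC-K4KO library held a peak and no young WT Cre library did. They were 3.94% of the 92495 merged regions and 31.4% of the 11594 regions held by all 7 of those libraries. Their absence from young WT Cre is therefore the rule, and no test is given for it.

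The 9 libraries comprised 2 from old WT Cre, 2 from old EC-K4KO, 3 from young EC-K4KO and 2 from young WT Cre mice, profiled from nuclei of purified brain endothelial cells (ECs). All mice carried the tamoxifen-inducible Cdh5-CreERT2 transgene, which acts in cells that use the VE-cadherin promoter, and EC-K4KO mice also carried floxed Klf4 alleles. The labels give age as young or old only. Library names set all young libraries apart from all old ones by a shared prefix, so any difference between those 2 name series and age cannot be told apart. The number of reads behind a peak is not given in the sources used here, so the depth is unknown.

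In Omni-ATAC-seq, the Tn5 transposase inserts adapters into DNA that nucleosomes do not cover, and stretches with many insertions are called as peaks. Promoters of active genes are usually open in every cell type, whereas regions far from genes, many of them enhancers, tend to be open in few. KLF4 is a zinc-finger factor that binds GC-rich and CACCC-type DNA. In vessels it is induced by laminar blood flow, and it is known to hold back inflammatory gene expression there.

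The sequences below show what these promoters look like. Each is the forward strand of GRCm38 (RefSeq), around the middle of the part covered in all 7 libraries, leaving out annotated untranslated bases. Capitals mark matches, on either strand, to 12 short motifs. These were GGGNGNGGC for KLF factors, CCGGAAG for ETS, TGANTCA for AP-1, CNAGGNGGC for CTCF, GCNTGCGC for NRF1, CCAATNA for NFY, AANATGGC for YY1, ACANNNTGT for the glucocorticoid receptor, CACGTG for the E-box, TGACGTCA for CRE (the cAMP response element, not the recombinase), TGTTTAC for FOX and ACAATG for SOX. The first 3 are promoters among the 15 best-ranked and the others are promoters of cell-cycle, barrier and endothelial genes described further on.
Snrnp40, chr4:130359993-130360131: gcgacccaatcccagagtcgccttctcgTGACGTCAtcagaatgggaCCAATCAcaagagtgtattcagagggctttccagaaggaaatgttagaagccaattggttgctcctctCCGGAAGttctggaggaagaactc
Plcxd2, chr16:46010414-46010556: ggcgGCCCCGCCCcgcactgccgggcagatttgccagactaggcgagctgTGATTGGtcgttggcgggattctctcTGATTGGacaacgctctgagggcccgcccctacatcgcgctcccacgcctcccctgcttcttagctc
Fkbp5, chr17:28486150-28486371: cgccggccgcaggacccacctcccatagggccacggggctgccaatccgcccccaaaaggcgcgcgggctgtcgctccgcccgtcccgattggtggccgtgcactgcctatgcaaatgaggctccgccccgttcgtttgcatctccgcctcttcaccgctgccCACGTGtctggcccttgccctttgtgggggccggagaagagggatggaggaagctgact
Cdk1, chr10:69352939-69353059: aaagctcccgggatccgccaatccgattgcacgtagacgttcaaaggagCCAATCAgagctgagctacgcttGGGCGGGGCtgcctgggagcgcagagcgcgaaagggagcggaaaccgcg
Ccnb1, chr13:100786571-100786796: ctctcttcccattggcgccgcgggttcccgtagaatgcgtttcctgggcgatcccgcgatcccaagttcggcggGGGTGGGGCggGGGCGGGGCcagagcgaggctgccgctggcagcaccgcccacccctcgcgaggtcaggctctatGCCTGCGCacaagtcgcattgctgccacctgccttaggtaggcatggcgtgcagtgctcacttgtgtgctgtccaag
Mfsd2a, chr4:122961195-122961382: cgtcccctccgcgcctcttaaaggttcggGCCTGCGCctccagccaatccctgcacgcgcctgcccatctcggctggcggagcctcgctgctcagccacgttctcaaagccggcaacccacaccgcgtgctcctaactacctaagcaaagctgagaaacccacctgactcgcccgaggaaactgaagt
Fli1, chr9:32541596-32541858: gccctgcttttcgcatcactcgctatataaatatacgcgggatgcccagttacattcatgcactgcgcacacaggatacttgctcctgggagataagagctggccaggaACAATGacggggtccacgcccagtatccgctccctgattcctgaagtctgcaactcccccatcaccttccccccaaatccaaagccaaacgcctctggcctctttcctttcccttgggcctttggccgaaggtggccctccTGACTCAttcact

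The promoter of Snrnp40 held an ETS, an NFY and a CRE match within 139 bases, that of Plcxd2 a KLF and a pair of NFY matches, and that of Cdk1 a KLF and an NFY match. Outside promoters the shown windows were chosen because Aacs and Zswim6 carry the best-ranked regions and because Klf2, Kdr, Tek and Zbtb16 belong to the gene lists used below.
Aacs, intergenic, chr5:125465676-125465975: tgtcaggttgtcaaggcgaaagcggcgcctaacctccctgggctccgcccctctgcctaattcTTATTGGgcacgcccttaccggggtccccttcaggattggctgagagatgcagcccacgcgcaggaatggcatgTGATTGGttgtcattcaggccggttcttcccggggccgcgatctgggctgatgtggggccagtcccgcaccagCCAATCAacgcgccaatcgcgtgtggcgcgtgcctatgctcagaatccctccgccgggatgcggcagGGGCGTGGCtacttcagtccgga
Zswim6, intron, chr13:107831249-107831548: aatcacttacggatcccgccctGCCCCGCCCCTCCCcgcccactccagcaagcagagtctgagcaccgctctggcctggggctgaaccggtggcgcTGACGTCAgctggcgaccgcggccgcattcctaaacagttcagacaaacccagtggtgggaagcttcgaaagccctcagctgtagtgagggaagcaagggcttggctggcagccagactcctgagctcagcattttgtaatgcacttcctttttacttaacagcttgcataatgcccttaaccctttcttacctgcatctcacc
Klf2, intergenic, chr8:72310982-72311281: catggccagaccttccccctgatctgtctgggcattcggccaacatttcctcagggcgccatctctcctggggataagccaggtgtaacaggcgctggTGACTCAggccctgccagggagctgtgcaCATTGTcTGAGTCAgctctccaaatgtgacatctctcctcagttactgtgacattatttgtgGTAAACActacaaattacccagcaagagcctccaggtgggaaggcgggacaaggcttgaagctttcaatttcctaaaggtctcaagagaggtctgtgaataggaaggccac
Kdr, intergenic, chr5:75826279-75826578: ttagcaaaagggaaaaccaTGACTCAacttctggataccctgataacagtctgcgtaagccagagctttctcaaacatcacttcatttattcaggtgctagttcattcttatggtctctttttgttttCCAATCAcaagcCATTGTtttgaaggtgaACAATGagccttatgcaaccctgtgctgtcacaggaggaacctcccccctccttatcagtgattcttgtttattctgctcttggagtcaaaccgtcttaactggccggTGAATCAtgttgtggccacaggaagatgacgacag
Tek, intron, chr4:94827055-94827354: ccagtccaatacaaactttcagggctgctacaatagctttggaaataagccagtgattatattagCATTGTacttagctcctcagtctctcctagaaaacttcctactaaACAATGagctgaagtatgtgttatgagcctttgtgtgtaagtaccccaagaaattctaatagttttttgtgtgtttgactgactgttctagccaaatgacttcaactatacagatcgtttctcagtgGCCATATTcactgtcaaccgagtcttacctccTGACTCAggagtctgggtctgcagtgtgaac
Zbtb16, intron, chr9:48740234-48740533: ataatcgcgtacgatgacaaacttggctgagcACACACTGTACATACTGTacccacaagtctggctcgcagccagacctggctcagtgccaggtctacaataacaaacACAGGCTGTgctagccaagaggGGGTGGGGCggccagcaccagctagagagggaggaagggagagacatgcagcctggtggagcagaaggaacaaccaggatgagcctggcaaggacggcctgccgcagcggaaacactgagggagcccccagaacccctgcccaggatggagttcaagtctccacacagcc

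The windows at Klf2, Kdr and Tek held AP-1 and SOX matches, and that of Zbtb16, a glucocorticoid-induced gene, held 3 matches to the receptor motif. The Fkbp5 window held none. Outside promoters, receptor matches were found in 8.24% of the set and 9.90% of all such regions. Other regions of the gene lists, among them another at Zbtb16, are not shown. The Aacs window held 3 NFY matches and a KLF match and lay at -10040 bp from the annotated start.

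The young WT Cre lists were the shortest of the series. They held 6157 and 9598 peaks, against 23848 to 27992 in the young EC-K4KO lists and 32555 to 45026 in the old lists. The targeted gene gave no check of the genotype, since every library had at least 1 peak over Klf4 (chr4:55527143-55532466, GRCm38). Promoters of 25 endothelial identity genes had a peak for 16 to 20 genes in the 7 libraries and for 11 and 13 genes in the young WT Cre libraries. No library had a promoter peak at any of 13 microglial genes. Promoter peaks at 13 pericyte and mural genes numbered 6 and 3 in old EC-K4KO, 0 and 3 in old WT Cre, and 0 in all young libraries. No promoter of that list was among the 3640 regions, which need a peak in every young EC-K4KO library, so this absence follows largely from the rule. Promoter peaks at 12 neuronal and 9 oligodendrocyte genes numbered 1 or 2 per list in each of the 7 libraries and 0 in both young WT Cre libraries. Those at 10 astrocyte genes numbered 0 to 2 in young EC-K4KO, 0 and 1 in young WT Cre, and 2 or 3 in every old library, and at most 1 neutrophil and 1 erythroid promoter was open in any library. The part of other cell types in the set was not tested.

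With lists of equal length, more regions were missing from young WT Cre alone than from any other single group. When each list was cut to its strongest 6157 peaks, the length of the shortest list, 175 regions were missing from young WT Cre alone. The corresponding numbers were 20 for young EC-K4KO, 25 for old WT Cre and 33 for old EC-K4KO. A region had to be absent from 3 libraries for young EC-K4KO and from 2 for each other group. Young WT Cre was also highest in the opposite direction, with 107 regions held by both its libraries and by no other group. That count was 82 for old EC-K4KO, 54 for old WT Cre and 52 for young EC-K4KO. These counts use the same peak calls as the rule. Of the 175 regions, 134 overlapped the 3640. With the complete lists the same rule gave 0 regions for each of the other groups, whose regions must then lie in both of the short young WT Cre lists, so the complete lists give no like comparison. The size of the set thus moved with the length of the lists, from 3640 to 175, and the part of read depth in it was not tested.

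**Figure D1:**
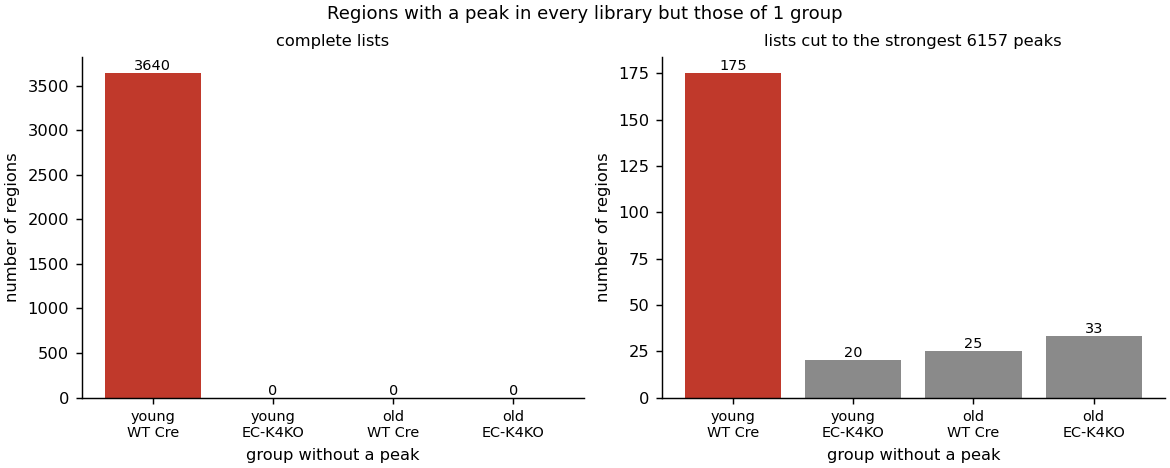
Number of merged regions with a peak in every library except those of 1 group, for the complete lists (left) and for lists cut to the strongest 6157 peaks (right). In the right panel young WT Cre has 175 regions and the other groups 20 to 33. In the left panel the 3640 regions are the rule's own count, and the 0s of the other groups are bounded by the 2 short young WT Cre lists.

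In the lists that held them, the regions ranked behind those open in all 9 libraries. The rank orders the peaks of a library by the deposited -log10 p and is given as a percent of the list, with 0 the strongest. The median rank of the 3640 regions was 38.8%, 39.9% and 36.2% in the young EC-K4KO libraries, 23.4% and 26.9% in the old EC-K4KO libraries, and 24.3% and 32.5% in the old WT Cre libraries. Regions held by all 9 libraries had median ranks from 6.14% to 10.9% in the same lists. In numbers, the median rank of the 3640 lay between 9249 and 10686 in all 7 lists, beyond the end of either young WT Cre list in 6 of the 7 and beyond the shorter in all.

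Promoters of the set ranked ahead of its other regions in every library, with medians of 21.1% to 35.8% against 25.4% to 43.2%. In total, 1946 regions ranked in the better 50% of every one of the 7 lists, 76 in the best 20% of every list, and 51 past the 50% mark in every list.

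Only part of the set ranked high enough to fit a list as short as those of young WT Cre. Between 499 and 630 of the 3640 regions, or 13.7% to 17.3%, ranked within the first 6157 peaks of a given library. In none of the 7 lists did 2403 regions (66.0%) reach that rank, and 134 regions reached it in all 7. Within the first 9598 peaks, 730 regions (20.1%) ranked in all 7 lists and 917 (25.2%) in none. Of all 4081 regions that ranked within the first 6157 peaks in each of the 7 libraries, 83.1% had a peak in both young WT Cre libraries, 13.6% in 1 of them and 3.28% in neither.

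**Figure D2:**
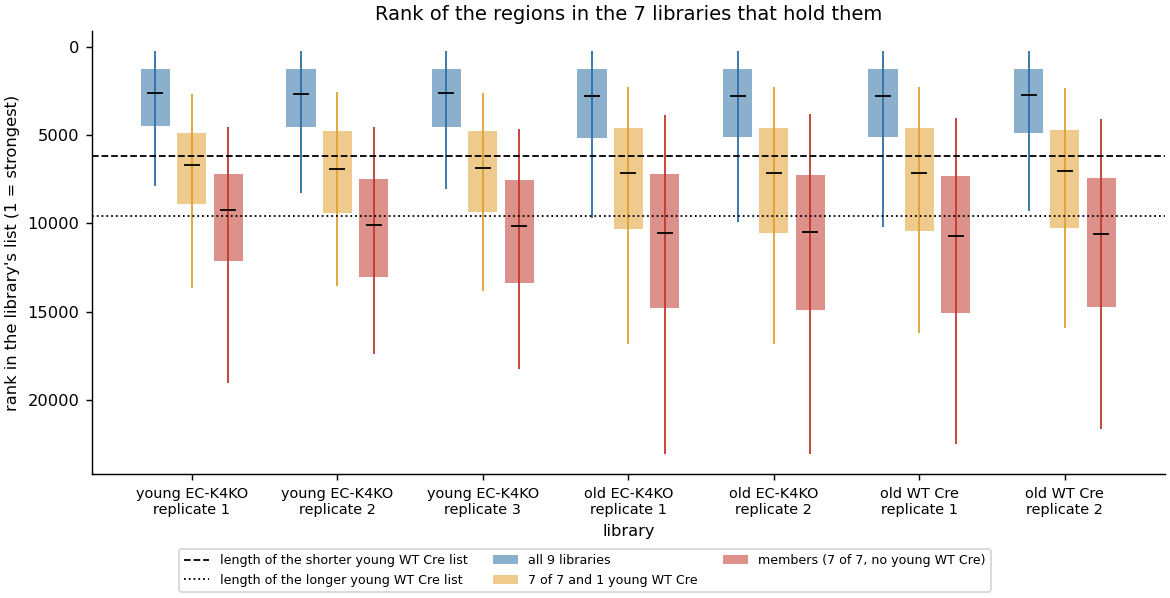
Rank of the regions (y axis, 1 is the strongest peak) in each of the 7 libraries that hold them (x axis), for the 3640 members, regions held in addition by 1 young WT Cre library and regions held by all 9. Bars span the quartiles, black ticks are medians, thin lines run from the 5th to the 95th percentile, and horizontal lines mark the lengths of the 2 young WT Cre lists. The members' medians, 9249 to 10686, lie past the shorter list length in every library.

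Just inside and just outside the rule, ranks formed a graded series. The median of the mean rank over the 7 libraries was 8.82% for the 4872 regions held by all 9 libraries, 22.3% for the 3082 held by 1 young WT Cre library, 32.7% for the 3640, and 42.6% for the 4674 held by 6 of the 7 and by no young WT Cre library. Among the 4674, the missing library was young EC-K4KO replicate 1 for 4262 (91.2%). Among the 3082, 2568 had their peak in young WT Cre replicate 2, where their median rank was 59.3%, against 27.3% for regions held by all 9. The best-ranked of the 3082 was the promoter of Kifap3, a kinesin-associated protein, with a peak at rank 2.81% in young WT Cre replicate 2, none in replicate 1, and ranks of 1.23% to 2.33% in the other 7. On the other side, the best-ranked was an intron of Phyhd1, at 5.83% to 15.6% in 6 libraries and without a peak in young EC-K4KO replicate 1.

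By the class that the deposited annotation gives most of a region's peaks, 1492 of the 3640 regions (40.99%) were promoter-TSS, 931 (25.6%) intron, 840 (23.1%) intergenic, 333 (9.15%) exon and 44 (1.21%) transcription termination site. The promoter share was 63.3% for regions held by all 9 libraries, 51.2% for those with 1 young WT Cre peak, 22.3% for those held by 6 of 7 and 10.4% over all merged regions. Classes were given alike by every library for 2785 of the 3640 (76.5%). A wider reading of the promoter gave a larger share, since 55.9% of the 3640 lay over a transcription start site (TSS) of GENCODE M21 and 58.4% had their centre within 1000 bp of one. Under that reading, 77.6% of the regions held by all 9 libraries lay over a TSS.

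**Figure D3:**
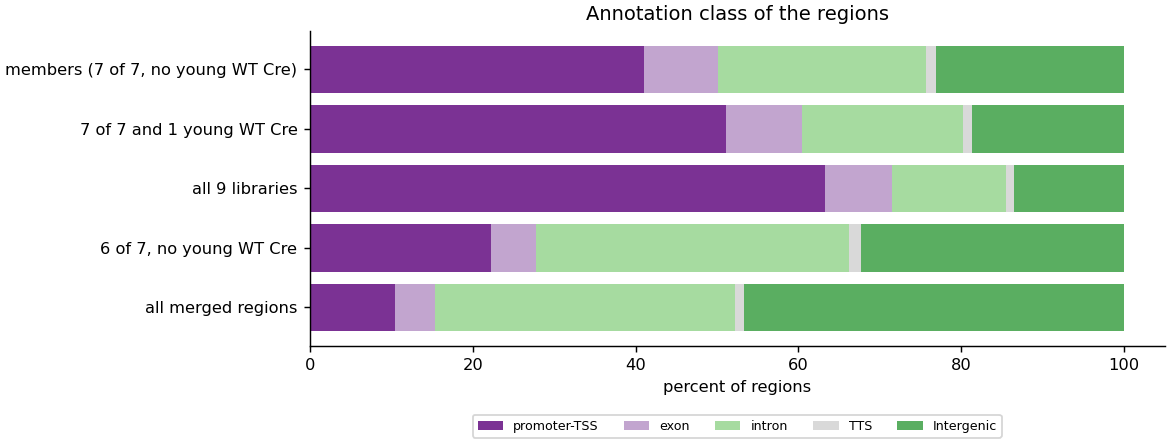
Share of regions in each annotation class (x axis, percent), for the 3640 members, the sets on either side of the rule, the regions held by all 9 libraries and all merged regions. The promoter-TSS share of the members, 40.99%, lies between 22.3% for regions held by 6 of 7 and 63.3% for regions held by all 9.

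The promoters of the set belonged to 1490 genes, and 1471 of these had no promoter peak in either young WT Cre list. This follows largely from the rule, since only a promoter peak elsewhere at the gene could differ, as for 19 genes. For 1221 of the 1490 genes young WT Cre had no peak of any class. The other 2148 regions named 1822 genes, of which 440 did have a promoter peak in young WT Cre, so that for these genes the promoter was called in young WT Cre and the second region was not. The nearest young WT Cre peak was at a median of 34348 bp from a member. It was within 1000 bp for 22 members.

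In base composition the promoters of the set were close to those open in all 9 libraries, and the remaining regions were lower in GC. The median width was 760 bp (range 259 to 3466), and the part covered in all 7 libraries had a median of 249 bp, against 853 and 516 bp for regions held by all 9. For 98 regions the peaks chained together without any base covered in all 7. Over the 300 bases around the midpoint, the median GC content of the promoters was 66.3%, with a CpG observed-to-expected ratio of 0.849, compared with 66.0% and 0.864 for promoters held by all 9 libraries. Outside promoters the medians were 53.3% and 0.351, compared with 58.3% and 0.541. Regions outside the promoter class were not free of start sites. Of these, 27.0% in the set lay over a TSS, compared with 41.7% of those held by all 9 and 4.62% over all merged regions. The start sites lay on both strands for 17.96% of the promoters of the set and for 28.9% of those held by all 9, a layout known as a bidirectional promoter.

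Counted over the 300 bases around the midpoint, the KLF motif was the most frequent in the set. It was found in 41.5% of the 1492 promoters (95% exact binomial interval 39.0 to 44.0), in 48.4% of promoters held by all 9 libraries and in 40.1% of all promoter-TSS regions. The NFY motif was found in 13.1% of the promoters (11.5 to 14.96), compared with 21.4% of those held by all 9 and 15.4% of all. ETS, at 19.8% (17.8 to 21.9), and NRF1, at 21.6% (19.6 to 23.8), were close to the 19.1% and 23.3% of promoters held by all 9. Regions share sequence families and are not replicates, so the intervals cover counting error only.

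Among the 2148 regions outside promoters, the KLF motif was found in 18.4% (16.8 to 20.1), against 29.6% of such regions held by all 9 libraries and 8.59% of all. AP-1 matches were found in 14.8% (13.3 to 16.3), against 12.9% and 11.6%. SOX matches were found in 17.2% (15.7 to 18.9), against 14.5% and 17.1%, and receptor matches in 8.24% (7.11 to 9.48), against 5.92% and 9.90%. KLF, ETS and NRF1 are GC-rich motifs, and GC content and the share over a TSS differed between these sets as given above. A match is a stretch of letters and not a bound site.

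**Figure D4:**
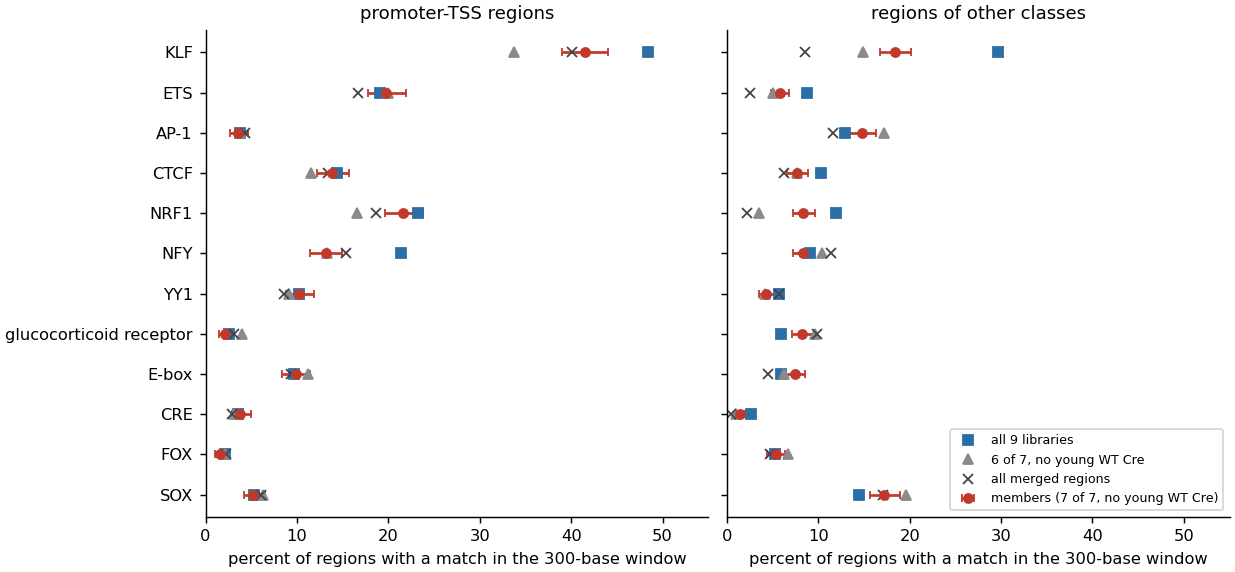
Share of regions (x axis, percent) whose 300-base window holds each motif (y axis), for promoter-TSS regions (left) and regions of other classes (right). Red points are the members with their 95% exact binomial intervals, squares regions held by all 9 libraries, triangles regions held by 6 of 7 and crosses all merged regions. The largest gap among promoters between the members and regions held by all 9 is at NFY, 13.1% and 21.4%. Promoters held by 6 of 7 stood at 13.2%.

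The 15 best-ranked promoters of the set belonged to genes of differing known roles. Over the 7 libraries, the mean rank was 4.90% for Pgbd5, a transposase-derived gene, 6.74% for Pold2, a subunit of DNA polymerase delta, and 6.76% for Fkbp5, a co-chaperone of the glucocorticoid receptor. These were followed by Cntrob, a centriole protein, Snrnp40, a protein of the U5 spliceosomal particle, Nomo1, Park7, which encodes the oxidative stress protein DJ-1, Zfp617, Ipmk, an inositol phosphate kinase, BC031181, Arrdc3, Flywch1, Plcxd2, Ube2t, a ubiquitin-conjugating enzyme of the Fanconi pathway, and Wdr59. All 15 had mean ranks between 4.90% and 8.81%.

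The promoter of Pgbd5 (chr8:124433921-124434772) ranked at 10.1%, 6.49% and 8.83% in the young EC-K4KO libraries, 1.52% and 1.84% in old EC-K4KO, and 2.00% and 3.55% in old WT Cre. Its fold enrichment over the local background, as deposited, was 5.34, 10.4 and 9.68 in the young EC-K4KO libraries, 17.2 and 17.0 in old EC-K4KO, and 13.0 and 13.2 in old WT Cre. Its rank was better in every old library than in every young EC-K4KO library, also when only the 11594 regions held by all 7 libraries were ranked, which removes list length. The nearest young WT Cre peak was 43059 bp away.

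The promoter of Fkbp5 (chr17:28485805-28486478) ranked at 16.8%, 8.76% and 7.69% in the young EC-K4KO libraries, 2.64% and 3.05% in old EC-K4KO, and 4.29% and 4.02% in old WT Cre. Its fold was 4.77, 10.4 and 11.1 in the young EC-K4KO libraries, 16.1 and 15.6 in old EC-K4KO, and 12.04 and 14.5 in old WT Cre. On either measure the old EC-K4KO values were the strongest, the old WT Cre values followed, and the young EC-K4KO values did not overlap with the old ones. Nor did they overlap by rank among the 11594 shared regions, at 34.6%, 19.1% and 18.6% against 10.2% to 16.2% in the old libraries.

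The 10 best-ranked regions outside promoters had mean ranks between 7.59% and 10.6%. They comprised intergenic regions at -10040 bp from the start of Aacs, -10381 bp from that of Uvrag and -11245 bp from that of Alas1, the first enzyme of heme synthesis, and others nearest Snhg7, Slc45a4 and Zfp541, an intron of Zswim6, exons of Zfp90 and at Ier2, and a termination site at Snord104. The region at Ier2, which lay 23392 bp from the start of that immediate early gene, stood at 1.08%, 8.26% and 6.48% in the young EC-K4KO libraries, 6.68% and 14.0% in old EC-K4KO, and 17.9% and 18.9% in old WT Cre. Unlike the promoters above, it ranked better in each young EC-K4KO library than in either old WT Cre library. Of these 10 regions, those at Slc45a4, Zfp90 and Snord104 lay over a TSS of GENCODE M21 and count as promoters under the wider reading.

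At the other end, an intergenic region nearest Gm3139 had a mean rank of 86.3% and an intron of Adam3 one of 78.9%. Neither had a base covered in all 7 libraries. The widest region, 3466 bp in an intron of Synj2 (chr17:5975396-5978861), ranked at 31.0% to 58.7%.

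Endothelial identity genes were held at the promoter for 5 of 25 genes, of which 20 had any promoter region, beside 15.8% over all 9433 genes with one. These were Fli1, an ETS factor, Lmo2, a transcriptional co-regulator of early endothelial and blood cells, Robo4, a guidance receptor of endothelium, Sox18, a SoxF factor, and Tek, the receptor TIE2 for angiopoietins. A further 10 of the 25 had a promoter region held by all 9 libraries. Membership was set by the rule, and the counts are descriptions.

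The promoter of Robo4 (chr9:37401729-37402130) was the best-ranked of these. It ranked at 26.8%, 24.6% and 19.6% in the young EC-K4KO libraries, 9.65% and 12.3% in old EC-K4KO, and 8.75% and 17.4% in old WT Cre. Its fold was 3.44, 6.12 and 6.09, then 7.72 and 6.64, then 6.67 and 5.94, in the same order of groups. A young WT Cre peak lay 862 bp from it. The promoter of Sox18 ranked at 38.5%, 49.3% and 27.7% in the young EC-K4KO libraries, 13.0% and 19.4% in old EC-K4KO, and 10.52% and 22.8% in old WT Cre, and that of Fli1 at 60.9%, 44.6% and 60.3%, 24.3% and 29.6%, and 18.3% and 34.6% in the same order. At all 3 promoters the old libraries ranked better than the young EC-K4KO libraries as percent of the list, which is lower for the same rank in a longer list, while old EC-K4KO and old WT Cre overlapped. Among the 11594 shared regions, Sox18 and Fli1 kept this order without overlap, whereas Robo4 stood at 54.96%, 52.5% and 46.9% against 36.8%, 40.5%, 32.7% and 47.2% and overlapped with old WT Cre. The promoters of Lmo2 and Tek ranked at 36.5% to 70.2% and at 42.7% to 73.0%. Tek overlapped between all groups.

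Outside promoters, 11 of the 25 endothelial genes had at least 1 region of the set. Over the 9433 genes with a promoter region, 730 had such a region, and 20 of the 25 genes meet that condition. Genes were not matched for their number of peaks, and the difference was not tested. Among the 11 genes, Flt1, a VEGF receptor, had 3 intron regions, with mean ranks of 32.9%, 36.5% and 49.97%. Kdr, the main VEGF receptor of endothelium, had an intron region at 44.5% and an intergenic region 151994 bp from its start at 37.2%. Ets1 had 3 intron regions, of which that at chr9:32715993-32716499 had a mean rank of 12.1% and folds from 4.39 to 12.5. Eng, Erg, Egfl7, Ptprb, Tal1, Vwf, Sox18 and Tek had the remaining regions.

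Of 20 barrier and transport genes, the promoters of F11r and Ocln, which encode tight junction proteins, and of Mfsd2a, the lipid transporter that limits transcytosis at the barrier, were in the set. The promoter of F11r ranked at 33.8%, 64.5% and 47.2% in the young EC-K4KO libraries, 21.4% and 24.5% in old EC-K4KO, and 16.8% and 22.4% in old WT Cre. That of Mfsd2a ranked at 38.0%, 41.6% and 25.01%, at 23.3% and 36.2%, and at 28.4% and 34.4%, and Ocln at 36.4% to 39.8%, at 29.4% and 39.3%, and at 24.4% and 43.6%. The groups overlapped for Mfsd2a and Ocln, whereas for F11r all old libraries ranked better than all young EC-K4KO libraries as percent of the list. Among the 11594 shared regions, F11r overlapped between the EC-K4KO groups, at 68.8%, 97.1% and 90.0% against 72.2% and 71.8%, and lay at 58.4% and 58.8% in old WT Cre. Regions outside promoters lay at Tjp1, Marveld2, Slc2a1, the glucose transporter GLUT1, Slc7a5 and Slco1c1, with Slc2a1 the weakest at a mean rank of 70.4%.

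**Figure D5:**
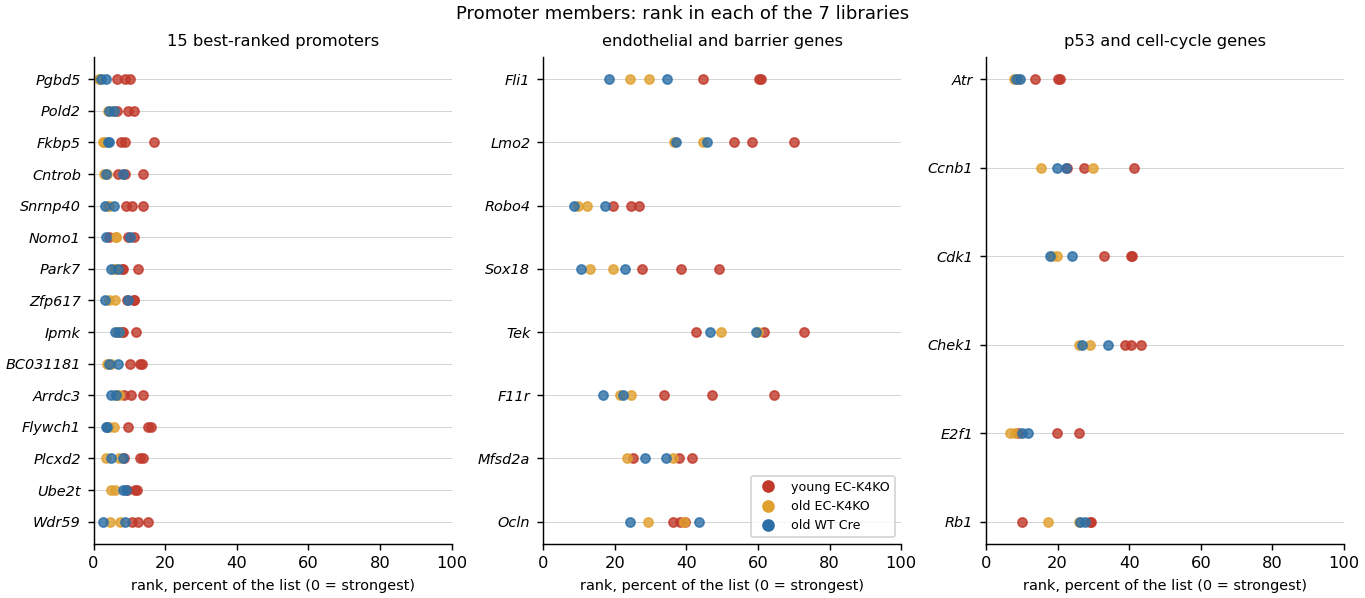
Rank of promoter members (x axis, percent of the list, 0 is the strongest) in each of the 7 libraries, 1 point per library coloured by group. The 15 best-ranked promoters lie at 16.8% or less, and the endothelial, barrier and cell-cycle promoters spread from 6.66% to 73.0%.

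Cell-cycle control had the largest share of promoters in the set among the pathway lists. Of 20 p53, senescence and cell-cycle genes, 6 had a promoter in the set, or 54.5% of the 11 with any promoter region, beside 15.8% over all genes. They were Atr and Chek1, kinases of the DNA damage checkpoint, Ccnb1 and Cdk1, which form the mitotic kinase, E2f1, and Rb1, which restrains it. The promoter of Atr ranked at 20.6%, 13.6% and 20.03% in the young EC-K4KO libraries, 7.84% and 9.04% in old EC-K4KO, and 8.44% and 9.52% in old WT Cre. That of E2f1 ranked at 26.1%, 19.96% and 8.99%, at 6.66% and 8.20%, and at 10.04% and 11.7%. As percent of the list, the old libraries ranked better than all young EC-K4KO libraries at Atr, Cdk1 and Chek1. Young EC-K4KO did not overlap with old EC-K4KO at E2f1 nor with old WT Cre at Ccnb1, overlapped with the other old group at each, and overlapped with both at Rb1. Of these 6 promoters, Cdk1 alone ranked better in all old libraries among the 11594 shared regions, at 61.2% to 64.7% against 73.2% to 80.2%. There Atr, at 42.2%, 29.6% and 47.8% against 26.6% to 31.6%, overlapped, as did Chek1, E2f1 and Ccnb1, and Rb1 ranked better in young EC-K4KO than in old WT Cre. Rb1 stood at 9.95%, 29.1% and 29.4% in young EC-K4KO against 17.3% to 27.7% in the old libraries. DNA repair had 4 of 20 promoters, namely Ercc3, Mre11a, Parp1 and Xrcc5, and ubiquitin and proteasome genes 4 of 18, namely Cul1, Psmb5, Psmc3 and Psmd4. The best-ranked of these 8 was Mre11a, a nuclease subunit of the complex that senses DNA breaks, at 26.2%, 13.5% and 8.82% in the young EC-K4KO libraries, 5.20% and 7.35% in old EC-K4KO, and 6.98% and 7.64% in old WT Cre. The lowest was Cul1, a scaffold of ubiquitin ligases, with a mean rank of 36.6%. The number of genes in these lists is small and no list was tested.

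No promoter of the KLF list was in the set. Of the 22 genes of KLF factors and their upstream MEK5-MEF2 pathway, 19 had a merged region of the promoter class and 16 had one held by all 9 libraries, beside 32.5% held by all 9 and 15.8% in the set over all 9433 genes. Regions of the set lay instead away from these promoters, at Klf2, Klf4, Klf7, Map3k2, Mef2a, Mef2c and Mef2d. The Klf2 regions, at -18244 and -7928 bp from the start, had mean ranks of 18.9% and 20.6%, and those nearest Klf4 lay at -157226 and -200982 bp with mean ranks of 47.1% and 48.9%. Immediate early genes had 0 of 15 promoters in the set, 10 of the 11 with a promoter region held by all 9 libraries, and regions outside promoters at Egr1, Fos, Fosl1, Ier2, Ier3 and Ier5. Apart from that at Ier2, the best-ranked was a region 26292 bp from the start of Egr1, with a mean rank of 11.1%.

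Glucocorticoid targets and clock genes, known to respond to stress hormones and time of day, had 13 of 20 promoters held by all 9 libraries. In the set were the promoters of Fkbp5 and of Tef, a PAR bZIP factor of the clock, which ranked at 13.5%, 15.03% and 14.2% in the young EC-K4KO libraries, 5.20% and 7.45% in old EC-K4KO, and 4.45% and 5.46% in old WT Cre. At Tef the old libraries also ranked better without overlap among the shared regions. Outside promoters, Ddit4, which encodes the mTORC1 inhibitor REDD1, had 3 intergenic regions with mean ranks of 18.1%, 21.3% and 30.1%, and Zbtb16 had intron regions at 24.6% and 29.0%. Regions also lay at Dusp1, Nr1d1 and Per1.

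The remaining lists held between 0 and 4 promoters of the set. Stress response genes had 3 of 20, namely Atf6, Hsf1, the heat shock factor, and Trib3. Hsf1 had a mean rank of 9.74%, against 45.6% for Atf6 and 49.9% for Trib3. Wnt and beta-catenin genes had the promoters of Lef1 and Lrp6 of 14, splicing genes Sf3a1 and Snrpd1 of 15, TGF-beta and BMP genes Pmepa1 of 18, Notch genes Jag2 of 12 and housekeeping genes Tbp of 15. Interferon and MHC class I genes had none of 16. Among markers of other cell types, the neuronal gene Map2 was the only promoter in the set, at ranks of 25.2% to 55.4%. No promoter of the pericyte, microglia, astrocyte, oligodendrocyte, neutrophil or erythroid lists was held. Only 7, 0, 4, 2, 1 and 2 genes of these lists, in that order, had any promoter region. None of these genes had a promoter peak in all 7 libraries, so the absence follows largely from the rule. Outside promoters, regions of the set lay nearest Gja1 and Slc1a3 of the astrocyte list, Pdgfra of the oligodendrocyte list and Slc17a7 of the neuronal list.

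Some promoters ranked better in young EC-K4KO than in the old libraries. The promoter of Pmepa1, an inhibitor of TGF-beta signalling, ranked at 8.39%, 7.16% and 4.41% in the young EC-K4KO libraries, 19.9% and 12.9% in old EC-K4KO, and 25.9% and 20.1% in old WT Cre. Its young EC-K4KO ranks were better than all old ones on this scale and among the shared regions. The promoter of Lrp6, a Wnt co-receptor, ranked at 10.6%, 36.0% and 26.4% in the young EC-K4KO libraries, 36.5% and 44.4% in old EC-K4KO, and 37.3% and 48.2% in old WT Cre, which likewise did not overlap on either scale.

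To ask how the 7 libraries differed over the set, library medians were compared by two-sided exact permutation tests, 9 in all, with Benjamini-Hochberg adjustment. The exact permutation p cannot go below 0.333 with 2 against 2 libraries, nor below 0.1 with 3 against 2, so none could pass 0.05. The labels do not say that the libraries of a group came from separate animals, and the p-values then measure only the spread between libraries. Young EC-K4KO libraries had a median rank of 38.3% ± 1.905 (SD, n = 3), old EC-K4KO libraries one of 25.2% ± 2.45 (n = 2) and old WT Cre libraries one of 28.4% ± 5.80 (n = 2). Young EC-K4KO differed from old EC-K4KO by 13.1 percentage points and from old WT Cre by 9.83, with no overlap of the libraries (exact permutation p = 0.1 and adjusted p = 0.225 for each). Old EC-K4KO and old WT Cre differed by 3.30 points, less than the spread between the old WT Cre libraries, and overlapped (exact p = 0.667, adjusted 0.667). The lists differed in length as given above, and a longer list lowers the percent of the same rank. By number in the list, the medians were 9249, 10094 and 10126 in young EC-K4KO. They were 10546 and 10506 in old EC-K4KO, and 10686 and 10596 in old WT Cre. On that scale every young EC-K4KO library ranked better than every old library, the other direction from the percents. Ranks by number were not tested.

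The median fold of the regions was 3.26, 5.33 and 5.53 in the young EC-K4KO libraries, 7.54 and 7.57 in old EC-K4KO, and 5.50 and 6.14 in old WT Cre. Old EC-K4KO lay above old WT Cre by 1.74 without overlap (exact p = 0.333, adjusted 0.429) and above young EC-K4KO by 2.85 (exact p = 0.1, adjusted 0.225). Young EC-K4KO and old WT Cre overlapped (exact p = 0.5, adjusted 0.562). The median width of their peaks was 341, 435 and 489 bp in the young EC-K4KO libraries, 614.5 and 596 bp in old EC-K4KO, and 528 and 532 bp in old WT Cre. Widths in old EC-K4KO exceeded those in old WT Cre by 75.2 bp (exact p = 0.333, adjusted 0.429) and those in young EC-K4KO by 184 bp (exact p = 0.1, adjusted 0.225). The difference of young EC-K4KO minus old WT Cre was -108 bp, without overlap (exact p = 0.2, adjusted 0.36). Whether these fold and width differences are particular to the set was not tested. Over regions held by all 9 libraries, the median fold was 5.29, 8.67 and 8.72 in the young EC-K4KO libraries, 9.90 and 9.61 in old EC-K4KO, and 8.27 and 8.80 in old WT Cre. The median width there was 593.5, 660.5 and 697 bp in the young EC-K4KO libraries, 752 and 738 bp in old EC-K4KO, and 699 and 700 bp in old WT Cre.

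Region by region, the groups' ranks were compared as non-overlapping or not, beside the same share over all 11594 regions held by the 7 libraries. With ranks as percent of the list, old EC-K4KO ranked better than old WT Cre without overlap at 995 of the 3640 regions (27.3%, beside 25.7% over all) and worse at 219 (6.02%, beside 7.71%). Young EC-K4KO ranked better than old EC-K4KO at 92 regions (2.53%, beside 4.57%) and worse at 2338 (64.2%, beside 59.6%). Against old WT Cre, it ranked better at 155 (4.26%, beside 6.68%) and worse at 1672 (45.9%, beside 44.9%). On this scale each of the 6 shares in the set was within 5 percentage points of that over all regions.

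When ranks were taken only among the 11594 shared regions, which removes list length, the counts in opposite directions lay closer together. Old EC-K4KO ranked better than old WT Cre at 909 regions (24.97%, beside 21.5%) and worse at 775 (21.3%, beside 22.9%). Young EC-K4KO ranked better than old EC-K4KO at 655 (17.995%, beside 24%) and worse at 944 (25.9%, beside 24%), and better than old WT Cre at 597 (16.4%, beside 20.8%) and worse at 838 (23.02%, beside 23%). When peaks were ranked by fold, old EC-K4KO ranked better than old WT Cre at 998 regions (27.4%, beside 19.3%) and worse at 440 (12.1%, beside 19.4%). By fold, young EC-K4KO ranked better than old EC-K4KO at 197 (5.41%, beside 15.4%) and worse at 1903 (52.3%, beside 37.1%), and better than old WT Cre at 157 (4.31%, beside 8.52%) and worse at 1514 (41.6%, beside 32.7%). Here 5 of the 6 shares lay more than 5 percentage points from those over all regions. The rule used the same peak calls, the scales differ, and nothing particular to the set was tested. The comparisons share libraries and are not independent of each other.

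Single regions with the largest non-overlapping differences are given by their ranks. These ranks are percents of the list and move with its length. An intron of Pds5b, a cohesin-associated protein, ranked at 74.3%, 93.3% and 62.3% in the young EC-K4KO libraries, 13.5% and 20.6% in old EC-K4KO, and 21.7% and 28.7% in old WT Cre. In the other direction, the region at Suv39h2, a histone H3 lysine 9 methyltransferase, ranked at 37.1%, 19.8% and 28.7% in the young EC-K4KO libraries, 69.7% and 68.9% in old EC-K4KO, and 58.6% and 76.7% in old WT Cre. The promoter of Brd7, a bromodomain protein, ranked at 16.6%, 18.02% and 25.5% in the young EC-K4KO libraries, 33.8% and 38.6% in old EC-K4KO, and 63.0% and 51.5% in old WT Cre. Here the old EC-K4KO values lay between the other groups.

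Between the old groups, Lef1, a factor of the beta-catenin pathway, was among the 3 regions with the largest difference to the disadvantage of old EC-K4KO, at 63.7% and 75.9% against 39.3% and 45.1% in old WT Cre. An intron region at Mir139 ranked at 73.3% and 93.3% against 43.6% and 57.4%. The intron region nearest Gfral stood at 41.7% and 52.6% in old EC-K4KO against 77.0% and 79.8%. These extremes were picked by size from 3640 regions with 2 libraries a group, and no p is given for them.

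Several genes were named by more than 1 region of the set. There were 372 genes named by 2 or more regions and 12 by 4 or more. The most were 5 each, at Ccdc68, with mean ranks of 34.9% to 50.4%, and at the predicted gene Gm10532, with mean ranks of 16.1% to 52.3%. The regions named Ccdc68 lay far from it, at -143238 to -288620 bp from its start, and most were classed as exon or intron. Those named Gm10532 lay at -49617 to 48383 bp from its start. Epas1, which encodes the hypoxia factor HIF-2 alpha and is expressed in brain endothelium, had 4, of which an intergenic region at chr17:86731957-86732498, at -21613 bp from the start, had the best mean rank, 14.3%. The receptor gene Igf1r had 4 regions with mean ranks of 33.4% to 63.5%, and Rgs3, a regulator of G-protein signalling, had 4 at 23.5% to 35.0%. Chd9 and Lrrc8d each had 4 regions that included the promoter.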

How the data were processed

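Omni-ATAC-seq libraries of mouse brain endothelial nuclei were analysed from the deposited peak lists. According to the study's methods, the authors trimmed reads with TrimGalore, aligned them to mm10 with Bowtie2, filtered with Picard and SAMtools and called broad peaks per library with MACS2. The labels' processing notes name Bowtie2, MACS2, mm10 and GRCm38. Each deposited peak carries a score, a fold enrichment (a ratio), a -log10 p and a -log10 q, and the authors deposited an annotation with class, nearest gene and distance to the TSS. The lowest deposited -log10 q was 1.00. The study's read-count test was not rerun, since read counts were not used here, and the depth per sample is unknown.

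None of the 253457 peaks ran past a GRCm38 chromosome. Peaks of all 9 lists were merged at 1 bp overlap (Python 3.11.15, pandas 2.3.3). The best peak of a library in a region gave its rank and fold. The width was summed over the library's peaks in the region, and 3502 members had a single peak in each of the 7 libraries. Class and gene were those of most peaks in the 7 libraries. Groups came from the labels. Sequences came from GRCm38 (pysam 0.24.0), and start sites from GENCODE M21. Library medians were compared by exact permutation. The code was tested on simulated peak lists. Named regions were the 15 best-ranked promoters, the 10 best-ranked others, the 5 widest and lowest-ranked, those at 23 gene lists, the 3 largest non-overlapping rank differences each way and the 5 best-ranked just outside, of which the text gives a part. Pds5b, Suv39h2, Brd7, Lef1, Mir139 and Gfral are of the rank-difference kind, and Igf1r, Epas1, Rgs3, Chd9 and Lrrc8d were named for their number of regions after the values were seen. The members, lists and motifs were chosen with earlier results of these data known. Replicates are called biological by the study, but the labels do not say whether animals were pooled. Some genes of the rule for named regions are not reported here.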

Additional observations from a re-analysis of the deposited data

How the results depend on the processing

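The number of regions missing only from young WT Cre was 3485 with q under 0.05, 3354 with q under 0.01, 3644 when peaks up to 200 bp apart were merged, 3029 when a library had to cover 50% of a region and 3618 with no young WT Cre peak within 1000 bp. It fell to 175 with the strongest 6157 peaks of each list. Leaving out a library gave 3638 to 7906, the highest without young EC-K4KO replicate 1, and 6208 without young WT Cre replicate 2. The promoter share was 45.9% with q under 0.01, 52.4% with the 50% cover and 72.6% with the strongest 6157 peaks, and 29.5% to 44.7% with a library left out, against 40.99%. Regions over a TSS made up 55.9% and those centred within 1000 bp of one 58.4%.

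The contrasts of rank, fold and width kept their direction under every alternative run except that without old WT Cre replicate 2 the rank of old EC-K4KO against old WT Cre turned, with a range of -7.40 to 0.805 over the libraries left out. Every rank alternative was a percent of a list, so none of them removed list length. By number in the list, the rank contrasts of young EC-K4KO with both old groups had the other direction, as given above. No contrast could pass 0.05 in these designs. With the labels' replicate number as a block, the paired differences were -3.30 for old EC-K4KO minus old WT Cre, 14.2 for young minus old EC-K4KO and 10.9 for young EC-K4KO minus old WT Cre (exact p = 0.5 each, the smallest that 2 pairs allow). The numbers only name the libraries. Counted over the whole merged region, all 12 motif shares lay above their intervals.

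Chosen after seeing the data, ranks among the shared regions moved 5 of the 6 non-overlap counts by over 1.5 times, to 775 from 219, 655 from 92, 944 from 2338, 597 from 155 and 838 from 1672. Ranks by fold moved 219 to 440 and 92 to 197, and they set the shares in the set further from those over all regions than ranks by p as percent of the list did.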

Other observations

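Gene families differed in the share of their promoters that was in the set, from 0 of 11 olfactory receptor genes to 31.6% of RNA polymerase subunit genes, beside 15.8% of all genes with a promoter region. The families are small and no difference was tested. Of the zinc finger (Zfp) genes with a promoter region, 45 of 239 (18.8%) were in the set and 25.5% had one held by all 9 libraries. Solute carriers numbered 24 of 153 (15.7%), mitochondrial ribosomal proteins 8 of 48 (16.7%), cytosolic ribosomal proteins 10 of 57 (17.5%) and proteasome subunits 8 of 36 (22.2%). Histone genes numbered 5 of 24 (20.8%) and microRNA genes 12 of 97 (12.4%). The subunits of the RNA polymerases stood at 6 of 19 (31.6%), the same number as were held by all 9 libraries.

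By RefSeq biotype, 96.2% of the 1490 promoter genes were protein-coding, 32 were lncRNA genes and 12 were microRNA genes. Among the 1822 genes named by the regions outside promoters, 86.7% were protein-coding, 164 were lncRNA genes and 67 were microRNA genes. The nearest gene is a label by distance and does not show which gene a region acts on.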
